A study of Mus musculus with 2 samples.

Results

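Nuclear-encoded oxidative phosphorylation subunits, taken as all genes whose symbol begins with Nduf (a, b, c, s or v and a digit), Uqcr, Cox4 to Cox8 or Atp5, were examined in microglia, the macrophages that reside in brain tissue, of PARK7/DJ-1 knock-out (KO) and wildtype (WT) mice. Of 79 matching symbols, 72 had at least 20 transcript molecules over both libraries and are described as the members, among 9085 genes that reached this number and 19537 listed in the files. The prefixes miss some subunits, which are given apart, and admit 2 genes that are no ATP synthase subunits by their current names, Atp5s and Atp5sl.

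Both groups carried the same treatment. All mice had a single intraperitoneal injection of LPS, the endotoxin of Gram-negative bacteria, which inflames the whole body, and CD11b+CD45int cells of the brain were sorted 24 h later. The KO mice carry a gene-trap insertion in Park7 in all tissues, on a line backcrossed to C57BL/6NCrl, and the study's methods give adult, age-matched WT littermates as controls. The groups are called KO LPS and WT LPS. Each was measured in 1 Drop-seq library, a droplet method that reads transcripts from their 3′ end and tags each molecule with a unique identifier (UMI). Each library pooled 2 mice, 1 female and 1 male. No library of uninjected mice was used. There is no replicate library, so no test was made, and the genotype cannot be told apart from the library and the pooled animals. All intervals are 95% intervals of counting error only.

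Oxidative phosphorylation takes place in the inner mitochondrial membrane. Complexes I, III and IV pass electrons from NADH to oxygen and pump protons, and complex V, the ATP synthase, makes ATP as the protons flow back. A few of their central subunits are encoded in mitochondrial DNA, and all others in the nucleus, among them catalytic core subunits and many small accessory subunits that stabilise the assembled complex. Microglia and other macrophages that respond to LPS are known to shift from respiration towards glycolysis.

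Cells were barcodes with at least 500 UMIs and 100 genes, which gave 320 cells with 381305 UMIs in KO LPS (median 963.5 UMIs per cell) and 1427 cells with 1989011 UMIs in WT LPS (median 1065). The libraries shared 0 cell barcodes. Park7 was counted with 1 UMI in KO LPS against 323 in WT LPS, that is 2.62 and 162 counts per 1e6 UMIs of the cells of that library (CPM). All 12 microglial markers were found in both libraries, at a summed 35300 CPM in KO LPS against 28708 in WT LPS. Choroid plexus markers summed to 2148 CPM in KO LPS against 15.1 in WT LPS, mostly Ttr with 710 against 20 UMIs. Summed markers of astrocytes (399 against 190.0 CPM), endothelial cells (86.5 against 15.1 CPM), pericytes and smooth muscle (42.0 against 15.1 CPM), oligodendrocytes (102 against 73.9 CPM) and B lymphocytes (99.7 against 58.3 CPM) were also higher in KO LPS. Sums were 26.2 against 15.6 CPM for monocytes, 62.9 against 40.2 CPM for border macrophages, 55.1 against 66.9 CPM for neurons, 0 against 2.51 CPM for erythroid cells and 0 against 1.01 CPM for T or NK lymphocytes. Of 7 neutrophil markers, S100a8 had 0 UMIs in KO LPS against 81 in WT LPS, S100a9 0 against 45 and Retnlg 0 against 2, and the other 4 had 0 in both. In KO LPS 200 cells held Xist and no Y-linked UMIs and 12 the reverse, against 565 and 195 in WT LPS, although both pools are labelled with 1 female and 1 male.

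The 72 members took a smaller share of the transcripts in KO LPS. Their summed level was 5667 CPM (5431 to 5911) in KO LPS against 9871 (9733 to 10010) in WT LPS (ratio 0.574, 0.549 to 0.60). By gene, 65 of 72 members were lower in KO LPS, beside 48.7% of all genes tested, or 51 of 72, beside 27.6%, when levels were scaled to other short transcripts as described below. At least 1.5-fold lower were 50 members, or 69.4%, where 28% of all genes tested were that much lower. Of the 35 members with transcripts up to 1000 bases 71.4% were, beside 51.1% of the other genes of that length. Scaled to other short transcripts, 18 members were at least 1.5-fold lower, beside 14.9% of all genes. At least 1.5-fold higher were 3 members, Ndufa9, Cox7a2l and Atp5sl, where 25% of all genes were, or 6 members, beside 47.4%, under that scaling. At least 2-fold lower were 26 members, beside 17.1% of all genes tested, and 0 were 2-fold higher, beside 12.9%. With genes of 1 UMI or more let in, 5 symbols of the rule were at least 1.5-fold higher, beside 31.7% of all such genes. On the log2 scale of KO LPS over WT LPS, the median was −0.82 over the members and 0.03 over all genes tested. Over all 79 symbols, the low ones included, the ratio of summed levels was 0.575 (0.550 to 0.601).

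The difference was of like size in the 4 complexes. Complex I, with 36 members, had 2263 CPM in KO LPS against 3895 in WT LPS (ratio 0.581, 0.541 to 0.623). Complex III, with 8 members, had 616 and 1049 CPM (ratio 0.588, 0.511 to 0.673). The other two complexes had ratios close to these. Complex IV, with 12 members, had 1364 and 2425 CPM (ratio 0.562, 0.513 to 0.616). Complex V, with 16 members, had 1424 and 2502 CPM (ratio 0.569, 0.520 to 0.622). The 4 intervals overlapped one another. Members at least 1.5-fold lower were 24 of 36 in complex I, 5 of 8 in complex III, 10 of 12 in complex IV and 11 of 16 in complex V, beside 28% of all genes tested. The share was 51.1% in the other genes with transcripts up to 1000 bases, a length that 35 of the 72 members share.

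**Figure D1:**
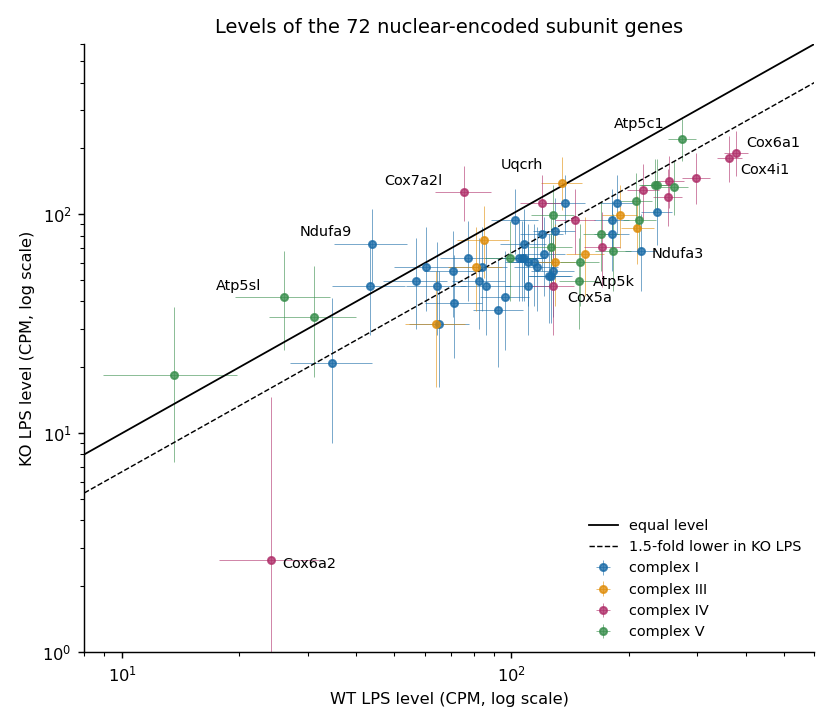
Level of each of the 72 members in KO LPS (vertical axis) against WT LPS (horizontal axis), in CPM on log scales, coloured by complex, with 95% Poisson intervals of counting error. Most points lie below the line of equal level, 50 of them below the dashed line of a 1.5-fold lower level. Above the line of equal level lie 7 members, of which Ndufa9, Cox7a2l and Atp5sl are at least 1.5-fold higher.

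In complex I, the NADH dehydrogenase, the most counted members were Ndufa4, Ndufa3 and Ndufc1. Ndufa4 had 102 CPM in KO LPS against 236 in WT LPS (ratio 0.433, 0.304 to 0.601). Its protein was first assigned to complex I and is now known as a subunit of complex IV. With Ndufa4 moved there, complex IV had a ratio of 0.551 (0.504 to 0.601). Ndufa3, a small accessory subunit, had the lowest ratio of this complex, with 68.2 CPM (26 UMIs) in KO LPS against 215 (428 UMIs) in WT LPS (ratio 0.317, 0.205 to 0.471). Ndufc1, another small accessory subunit, had 113 and 187 CPM (ratio 0.603, 0.429 to 0.828).

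The 7 core subunits of complex I, which bind the flavin, the iron-sulphur clusters or the quinone, and the 28 accessory subunits differed alike. The core summed to 338 CPM in KO LPS against 559 in WT LPS (ratio 0.606, 0.501 to 0.727), and the accessory subunits to 1823 and 3101 CPM (ratio 0.588, 0.543 to 0.636). Among the core, Ndufs8, which carries iron-sulphur clusters on the path to ubiquinone, was at 36.7 CPM in KO LPS against 92.5 in WT LPS (ratio 0.397, 0.213 to 0.683). Ndufs1, the largest iron-sulphur subunit, was at 49.8 and 56.8 CPM with an interval that spans 1 (ratio 0.877, 0.509 to 1.43). The 2 members of the complex that were higher in KO LPS were both accessory. Ndufa9, a subunit near the quinone site, had 73.4 CPM (28 UMIs) in KO LPS against 43.7 (87 UMIs) in WT LPS (ratio 1.68, 1.06 to 2.60). Ndufb4 had 47.2 and 43.2 CPM, a ratio of 1.09 with an interval, 0.618 to 1.83, that spans 1.

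In complex III, which passes electrons from ubiquinol to cytochrome c, 4 of the 5 small subunits had lower ratios than the core as a whole. The 5 small subunits summed to 451 CPM in KO LPS against 819 in WT LPS (ratio 0.551, 0.468 to 0.645). The 3 larger subunits, Uqcrc1, Uqcrc2 and the Rieske iron-sulphur protein Uqcrfs1, summed to 165 and 229.8 CPM (ratio 0.719, 0.544 to 0.937). The intervals of both ratios overlap. Among the small subunits, Uqcrq had 86.5 CPM in KO LPS against 211 in WT LPS (ratio 0.411, 0.279 to 0.586). Uqcr11 had 65.6 and 155 CPM (ratio 0.423, 0.270 to 0.637), and Uqcrb 99.7 and 189.5 CPM (ratio 0.526, 0.366 to 0.735). Uqcrh, the acidic hinge protein that helps to bind cytochrome c1, stood apart from the other small subunits with 139 CPM (53 UMIs) in KO LPS against 135 (268 UMIs) in WT LPS (ratio 1.03, 0.753 to 1.39). The larger subunits were unlike one another. Uqcrc2, one of the core proteins, was at 76.0 and 85.0 CPM (ratio 0.895, 0.582 to 1.33), and Uqcrfs1, with a ratio of 0.493 (0.248 to 0.891), lay below the sum of the small subunits.

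Complex IV, cytochrome c oxidase, held the 3 members with most UMIs over both libraries. UMI counts of 3′ ends count molecules and were not divided by transcript length. Cox6a1 came first with 191 CPM in KO LPS against 377 in WT LPS (ratio 0.508, 0.394 to 0.646), followed by Cox4i1, the subunit that binds regulatory ATP, with 181 and 363 CPM (ratio 0.499, 0.384 to 0.639). Cox6b1, which links the monomers of the dimer, had 147 and 298 CPM (ratio 0.493, 0.368 to 0.650). The lowest ratios of this complex among members with at least 50 UMIs were those of Cox5a and Cox5b, nuclear subunits on the matrix side of the core. Cox5a had 47.2 CPM in KO LPS against 128 in WT LPS (ratio 0.370, 0.216 to 0.596), and Cox5b 70.8 and 171 CPM (ratio 0.414, 0.269 to 0.614).

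A pair of complex IV genes did not share the lower level. Cox7c, a small transmembrane subunit, was at 113 CPM in KO LPS against 119.7 in WT LPS (ratio 0.942, 0.665 to 1.31). Cox7a2l, which joins complexes III and IV into supercomplexes and is no regular subunit of the oxidase, was higher in KO LPS, with 126 CPM (48 UMIs in 39 cells) against 75.4 CPM (150 UMIs in 129 cells) (ratio 1.67, 1.18 to 2.32). In cells without choroid plexus UMIs its ratio was 1.34, short of 1.5-fold. Its paralogue Cox7a2 had 94.4 and 146 CPM (ratio 0.648, 0.445 to 0.918).

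Isoforms of complex IV that are restricted to other tissues were scarce, with 1 exception. Cox6a2, the isoform of heart and skeletal muscle, was counted in WT LPS with 48 UMIs in 43 cells (24.1 CPM) and in KO LPS with 1 UMI (2.62 CPM) (ratio 0.109, 0.00270 to 0.635). It reached the number of UMIs for testing through WT LPS alone, and in barcodes with at most 100 UMIs it had 0 CPM in both libraries. Cox6b2 had 2 and 6 UMIs, Cox7a1 2 and 3, and Cox8b and Ndufa4l2, the latter a paralogue of Ndufa4, 0 and 1. Cox4i2, the lung isoform of subunit 4, had 0 UMIs in both, where 3 counts, a one-sided limit that a count of 0 allows, would be 7.87 CPM in KO LPS against 1.51 in WT LPS.

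In complex V, the catalytic F1 head and the membrane part with its stalk were both lower. The 5 F1 members summed to 600.6 CPM in KO LPS against 1026 in WT LPS (ratio 0.586, 0.509 to 0.672), and the 9 membrane and stalk members to 763 and 1436 CPM (ratio 0.531, 0.469 to 0.60). Atp5b, the catalytic β subunit, had 134 CPM in KO LPS against 261 in WT LPS (ratio 0.513, 0.377 to 0.684). Its partner Atp5a1, the α subunit, had 115 and 209 CPM (ratio 0.553, 0.396 to 0.756). Atp5c1, the γ subunit that turns inside the head, was lower by less, with 220.3 CPM (84 UMIs), the highest level of any member in KO LPS, against 274.5 (546 UMIs) in WT LPS, a ratio of 0.802 with an interval of 0.630 to 1.01. Atp5f1, the b subunit of the peripheral stalk, had 136 and 236 CPM (ratio 0.577, 0.425 to 0.770).

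The lowest ratios of complex V belonged to small subunits. Atp5k, the e subunit at the dimer interface, had 49.8 CPM in KO LPS against 149 in WT LPS (ratio 0.335, 0.199 to 0.532), and Atp5e, the ε subunit of the central stalk, 68.2 and 182.5 CPM (ratio 0.374, 0.241 to 0.557). Atp5l, the g subunit, which lies beside the e subunit in the membrane, did not share this, with 34.1 CPM (13 UMIs) and 31.2 CPM (62 UMIs) (ratio 1.09, 0.552 to 2.01). The genes for the c ring, which are near-identical in their mature protein, were unequal in abundance: Atp5g3 had 99.7 and 128 CPM, Atp5g1 70.8 and 126 CPM, and Atp5g2 0 and 3 UMIs. Atp5sl and Atp5s, which are no subunits of the synthase, had ratios of 1.61 (0.855 to 2.86) and 1.35 (0.497 to 3.18). Without both, 65 of 70 members were lower, beside 48.7% of all genes tested, with a summed ratio of 0.570 (0.545 to 0.596).

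**Figure D2:**
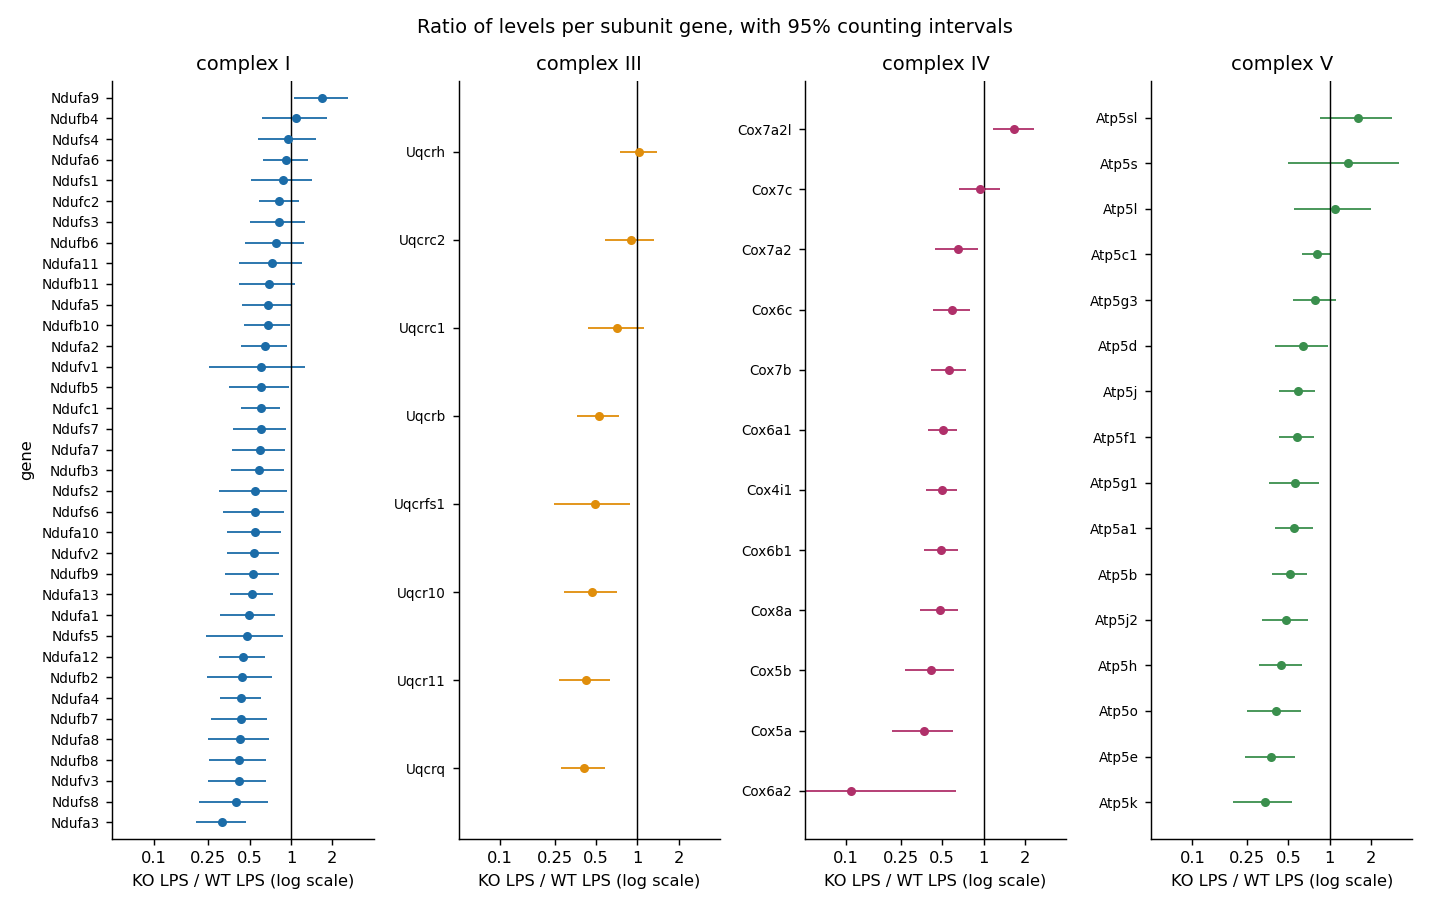
Ratio of KO LPS over WT LPS for each of the 72 members, sorted within its complex, on a log axis, with exact 95% counting intervals; the vertical line marks equal levels. The intervals of Ndufa9 and Cox7a2l lie wholly above 1, and those of most members wholly below 1.

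Members varied in their ratios by more than counting error gives. The SD of the member log2 ratios was 0.57, where counting error alone gives 0.34, and it was of like size in proteasome subunits (0.52) and in mitochondrial (0.54) and cytosolic (0.60) ribosomal proteins. The order of the member levels was similar in both libraries (Spearman's rho 0.783 across 72 members, 0.781 across all genes tested; genes are not independent replicates). Counts of members with processed pseudogenes or close paralogues, such as Cox6a1, Cox7c, Uqcrh and the Atp5g genes, are uncertain where the authors' counting split or dropped shared reads, which was not given in the sources used here.

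Regulatory sequence was compared because these genes are scattered over the genome and are known to be driven by shared factors. RefSeq promoter windows (build GRCm38.p6, 250 bases before to 50 after the start) were found for 58 of 72 members. The core of the NRF1 site, CGCANGCG on either strand, was found in 37.9% of these members, in 9.22% of all 27025 genes with a window and in 22.1% of the 6816 tested genes with one. The initiator-like YY1 motif AAGATGGC was found in 15.5% of members, 3.19% of all genes and 6.43% of tested genes, and the ERR half-site AAGGTCA in 12.1%, 5.38% and 3.89%. The ETS motif CCGGAAG, which GABPA binds, was in 24.1% of members, 9.93% of all genes and 24.0% of tested genes. The Sp1 motif GGGCGG was rarer in members, at 36.2%, than in tested genes, at 70.5%, and was found in 38.2% of all genes. Motifs were counted on both strands and may overlap one another; CGCANGCG can match itself on the opposite strand.

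Members with and without a motif were both lower in KO LPS at the median. The median log2 ratio was −0.75 in the 22 members with the NRF1 core and −0.85 in those without, −1.03 in the 14 with the ETS motif and −0.78 in those without, and −1.0 in the 7 with the ERR half-site and −0.83 in those without. For the YY1 motif the medians were −0.76 and −0.84, and for the Sp1 motif −0.92 and −0.75. The stretches of 120 bases before the start are printed for members with a match and unlike ratios within 1 complex, Ndufa12 (0.449) beside Ndufb4 (1.09), Uqcr11 (0.423) beside Uqcrh (1.03) and Atp5k (0.335) beside Atp5c1 (0.802), and for Cox6a1, the member with most UMIs. Atp5c1 has 2 annotated starts, and the stretch before the one with matches is shown. Capitals mark matches to the NRF1 core or the ETS motif. A match is a description of the letters and no evidence of binding.
Ndufa12 (chr10:94198915-94199034, plus strand): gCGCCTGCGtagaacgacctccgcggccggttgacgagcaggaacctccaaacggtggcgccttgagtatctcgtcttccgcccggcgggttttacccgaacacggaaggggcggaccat
Ndufb4 (chr16:37654369-37654488, minus strand): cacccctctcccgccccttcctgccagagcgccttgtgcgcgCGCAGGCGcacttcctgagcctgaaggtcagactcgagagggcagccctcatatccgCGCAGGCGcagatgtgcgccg
Uqcr11 (chr10:80406822-80406941, minus strand): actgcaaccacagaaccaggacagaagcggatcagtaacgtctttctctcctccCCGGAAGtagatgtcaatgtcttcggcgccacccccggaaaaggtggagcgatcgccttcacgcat
Uqcrh (chr4:116075071-116075190, minus strand): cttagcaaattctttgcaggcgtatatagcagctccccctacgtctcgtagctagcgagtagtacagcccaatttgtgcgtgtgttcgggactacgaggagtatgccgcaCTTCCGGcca
Atp5k (chr5:108434400-108434519, minus strand): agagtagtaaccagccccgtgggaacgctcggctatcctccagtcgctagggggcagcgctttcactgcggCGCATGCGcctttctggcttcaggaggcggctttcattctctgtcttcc
Atp5c1 (chr2:10080433-10080552, minus strand): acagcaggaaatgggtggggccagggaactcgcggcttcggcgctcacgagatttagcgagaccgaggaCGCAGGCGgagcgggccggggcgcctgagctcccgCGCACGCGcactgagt
Cox6a1 (chr5:115348959-115349078, minus strand): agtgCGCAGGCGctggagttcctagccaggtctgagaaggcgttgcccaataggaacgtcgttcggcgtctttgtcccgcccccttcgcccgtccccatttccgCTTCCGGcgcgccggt

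Both Ndufb4, nearly level between the libraries, and Atp5c1 hold 2 NRF1 cores in these stretches, where Ndufa12 and Atp5k hold 1 each. The number of cores did not order the ratios, since Ndufa8, not shown, also holds 2 and had a ratio of 0.427. Uqcr11 and Uqcrh hold 1 ETS match each. Cox6a1 holds 1 of each kind.

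Subunits and partners outside the symbol rule were lower as well. All 9 of them were lower in KO LPS, beside 48.7% of all genes tested, 8 by at least 1.5-fold, beside 28%, and they summed to 959.9 CPM in KO LPS against 1874 in WT LPS (ratio 0.512, 0.459 to 0.570). These were Ndufab1, the acyl carrier protein of complex I, Cyc1 and Cycs, the cytochromes c1 and c, the small ATP synthase subunits 2010107E04Rik and Usmg5, the synthase inhibitor Atpif1, and the carriers of ADP and phosphate Slc25a4, Slc25a5 and Slc25a3. Slc25a5, which exchanges ADP for ATP, was the most abundant with 307 CPM (117 UMIs) and 649 CPM (1290 UMIs), a log2 ratio of −1.07.

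Complex II, which feeds electrons from succinate and has no subunit in mitochondrial DNA, was not uniform. Sdhb, its iron-sulphur subunit, had 94.4 CPM in KO LPS against 214 in WT LPS (log2 ratio −1.16), and the membrane anchor Sdhc 28.8 and 46.3 CPM (−0.62). The flavoprotein Sdha was level at 76.1 and 75.9 CPM, and Sdhd, the other anchor, was at 76.1 and 60.8 CPM. Summed over the 4 genes the ratio was 0.693 (0.560 to 0.851). Assembly factors, which build the complexes without staying in them, had a ratio of 0.766 (0.690 to 0.848) over 38 genes. Of the 37 tested, 15 (40.5%, beside 28% of all genes tested) were at least 1.5-fold lower and 3 (8.11%, beside 25%) at least 1.5-fold higher.

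Mitochondrially encoded subunits of the same complexes differed less between the libraries. Of 13 such genes 11 were listed in the files. These summed to 6250 CPM in KO LPS against 7136 in WT LPS (ratio 0.876, 0.838 to 0.915). This interval does not meet that of the nuclear-encoded members. The gap was larger with each cell thinned to 500 UMIs, as described below. KO LPS cells then held a mean of 2.71 and WT LPS cells 3.49, beside 2.67 and 4.56 for the members. A single KO LPS cell held 51 of these counts. Without the top cell of each library, the variance over the mean fell from 5.22 to 2.67 for KO LPS. For WT LPS it fell from 2.31 to 2.12. By gene, mt-Nd2 had 1547 CPM in KO LPS against 1465 in WT LPS and mt-Nd5 1448 and 1406 CPM, both close to level, and mt-Co1, the catalytic subunit of complex IV, 422 and 505 CPM. mt-Nd1 was the only one at least 1.5-fold lower (14.3% of the 7 tested, beside 28% of all genes tested), with 997 and 1523 CPM. The mitochondrial transcripts of several subunits, among them mt-Co2, mt-Co3 and mt-Atp6, had 0 to 2 UMIs in both libraries, so this comparison rests on the 7 genes with at least 20 UMIs.

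Other housekeeping groups were lower to a like degree. Mitochondrial ribosomal proteins, which translate the mitochondrially encoded subunits, had 2455 CPM in KO LPS against 4082 in WT LPS (ratio 0.601, 0.561 to 0.643) over 76 genes, of which 74 were tested. Proteasome subunits, taken by symbol, had a ratio of 0.588 (0.556 to 0.622) over 40 genes, of which 39 were tested. The symbols admit Psmc3ip (3 and 31 UMIs), which is no proteasome subunit. Cytosolic ribosomal proteins had 13567 and 26350 CPM (ratio 0.515, 0.500 to 0.530) over 86 genes, of which 81 were tested. The 4 complexes lay within the range of these groups.

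**Figure D3:**
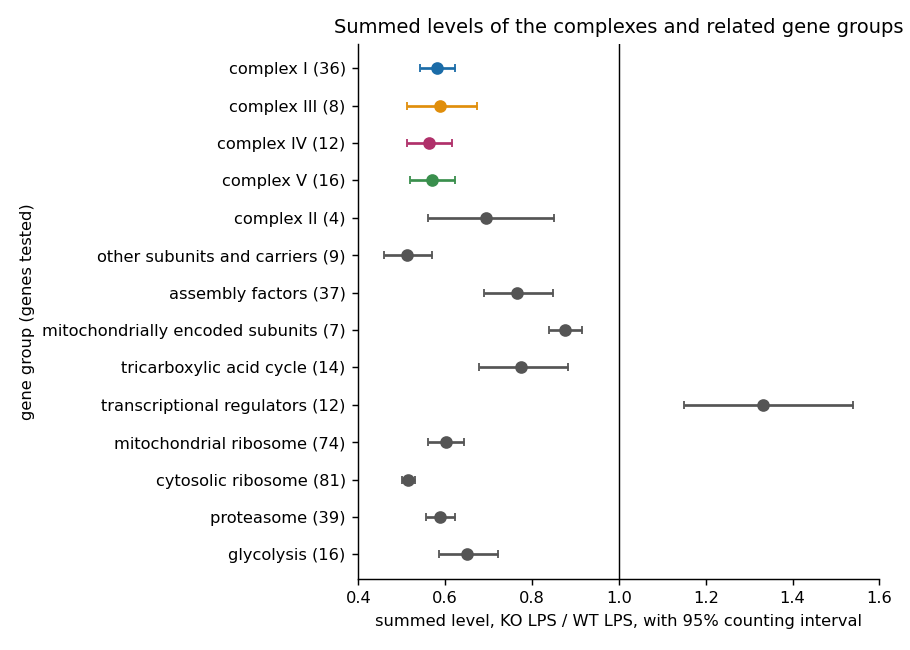
Ratio of summed levels, KO LPS over WT LPS, for the 4 complexes (coloured) and related gene groups (grey), with 95% counting intervals and the number of tested genes in parentheses. The 4 complexes lie between 0.562 and 0.588, beside the ribosomal and proteasome groups, and the mitochondrially encoded subunits lie at 0.876.

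Abundance and transcript length moved with the ratio across all genes, so the members were set beside other genes in the same range. Among genes with at least 100 and under 500 UMIs, 57 members had a median log2 ratio of −0.82 and 3556 other genes −0.03, and among genes with 500 or more UMIs, 10 members had −0.96 and 846 other genes −0.18. The 5 members with 20 to 99 UMIs were at 0.17, close to the 0.16 of other genes. Members have short transcripts, with a median of 1046.5 bases where all genes tested had 3405 (GENCODE vM39 lengths). Other genes with transcripts up to 1000 bases were also lower in KO LPS, with a median log2 ratio of −0.53 over 530 genes against −0.97 over 35 members of that length. In the other length ranges the members stood at −0.69 against −0.30 (over 1000 to 2000 bases), −0.80 against −0.05 (over 2000 to 4000) and −0.87 against 0.31 (over 4000, 4 members).

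The gap to other genes was smaller where both short length and an abundance of at least 100 UMIs were matched than where either was matched alone. Of genes up to 1000 bases with 500 or more UMIs, 5 members had a median of −1.01 and 51 other genes −0.90, and with at least 100 and under 500 UMIs 28 members had −0.78 and 187 others −0.61. At least 1.5-fold lower were 100% of these 5 members and 80.4% of the 51 others, and 67.9% of the 28 members and 52.4% of the 187 others. Without cytosolic ribosomal and mt- genes the medians of the others were −0.98 (29 genes) and −0.61 (164 genes). With 20 to 99 UMIs, 2 short members had −1.23 and 292 others −0.31. When levels were scaled so that other genes up to 1000 bases had a median log2 ratio of 0, the summed log2 ratio of the members was −0.27 in place of −0.80, with 18 members at least 1.5-fold lower and 6 higher. That scaling moves the median of all genes tested from 0.03 to 0.56. The part of transcript length in the lower level was not tested.

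**Figure D4:**
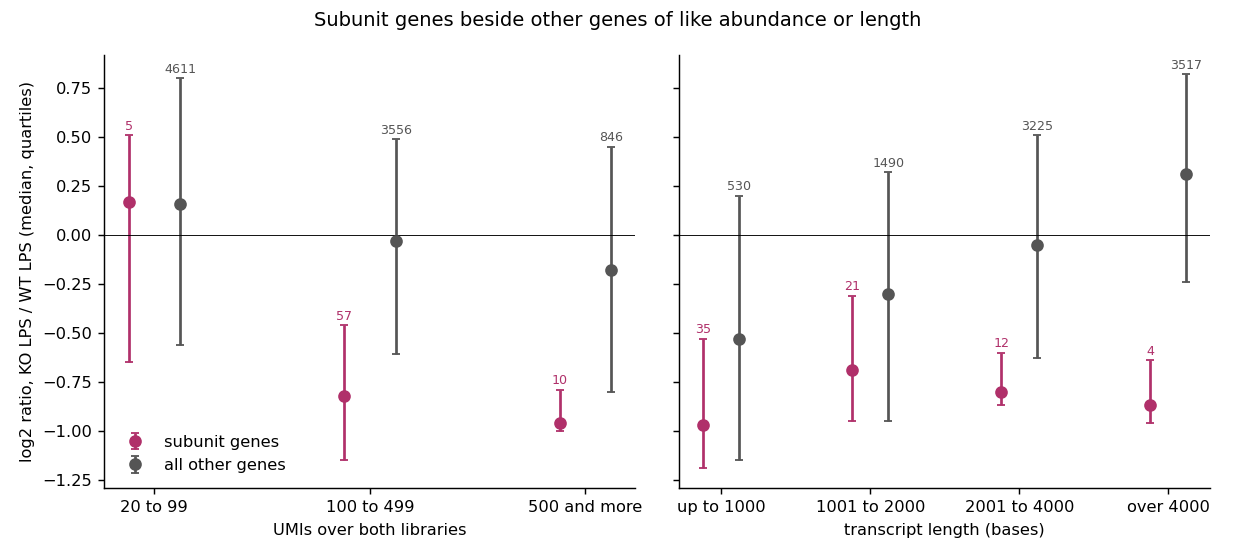
Median log2 ratio with quartiles of the members and of all other genes by UMIs over both libraries (left) and by transcript length (right); numbers give the genes in each group. The members lie below other genes in every length range and above 100 UMIs, and the other genes of up to 1000 bases lie at −0.53.

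Depth differs between cells, so each cell was thinned to 500 UMIs. KO LPS cells then held a mean of 2.67 member UMIs (median 2, quartiles 1 and 4) and WT LPS cells 4.56 (median 4, quartiles 2 and 6), against 6.75 and 13.8 unthinned. No member UMI was left in 42 of 320 KO LPS cells (13.1%) and 89 of 1427 WT LPS cells (6.24%). Cells differed beyond counting error in both libraries, since a Poisson spread would leave 6.93% and 1.05% of cells at 0. The variance over the mean was 1.85 in KO LPS cells and 1.89 in WT LPS cells, or 1.58 and 1.86 without the cell of each library with most. In 1000 UMIs per cell, the means were 5.76 over 148 cells and 10.25 over 770 cells, with a variance over the mean of 3.34 and 2.19, or of 2.04 and 2.13 without the cell of each library with most member UMIs, a choice made after seeing the data.

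Free RNA in droplets was compared with the cells. In barcodes with at most 100 UMIs, which mostly hold no cell, the members had 3517 CPM (3261 to 3788) in KO LPS against 3766 (3555 to 3986) in WT LPS, a ratio of 0.934 with an interval of 0.85 to 1.03. The gap between the cells of the libraries was not seen at that size outside them. A smaller gap was seen in all barcodes not counted as cells, where the members had a ratio of 0.890 (0.833 to 0.951). There the complexes had ratios of 0.881 (I), 1.03 (III), 0.934 (IV) and 0.817 (V). The level in cells over that in barcodes with at most 100 UMIs was 1.61 (1.48 to 1.76) in KO LPS and 2.62 (2.47 to 2.78) in WT LPS. Droplets of 500 UMIs drawn from this free RNA would hold 1.76 member UMIs in KO LPS against 1.88 in WT LPS, beside the 2.67 and 4.56 found in cells. Mitochondrially encoded subunits had 1.25 and 1.22 times the level of these barcodes in KO LPS and WT LPS cells, and cytosolic ribosomal proteins were lower in KO LPS also outside cells, with a ratio of 0.681 (0.642 to 0.722).

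**Figure D5:**
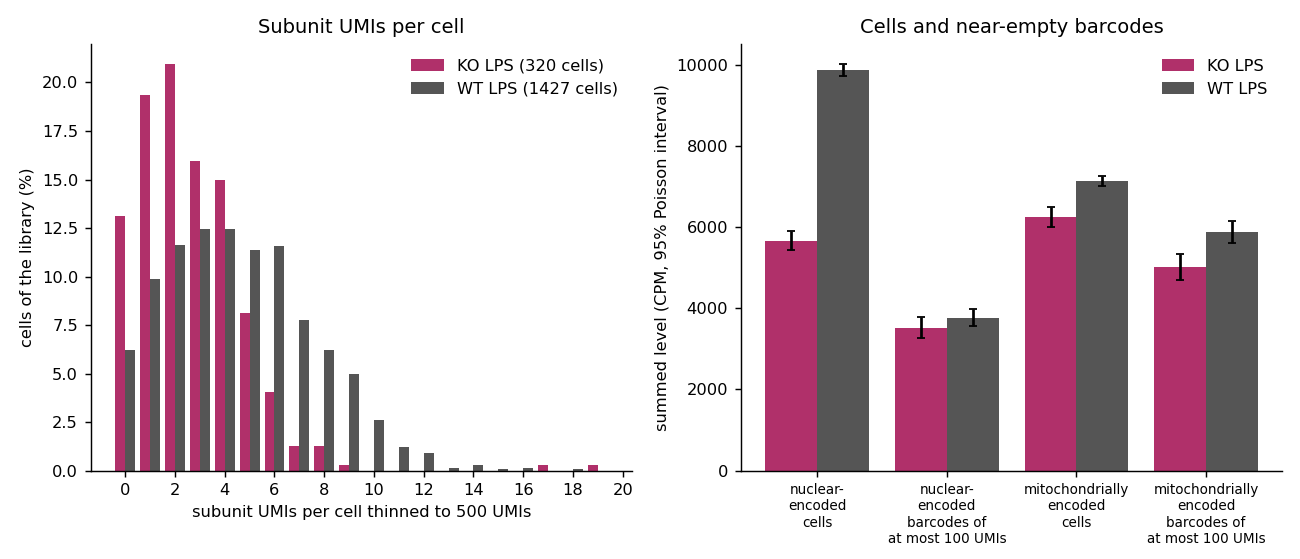
Left, share of cells (%) with each number of member UMIs after thinning to 500 UMIs per cell, in KO LPS (320 cells) and WT LPS (1427 cells). Right, summed level in CPM with 95% Poisson intervals of nuclear-encoded and mitochondrially encoded subunits in cells and in barcodes with at most 100 UMIs; nuclear-encoded subunits stand at 5667 and 9871 CPM in cells and at 3517 and 3766 CPM outside them.

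Within WT LPS, member levels went with the inflammatory response. Cells were split into 3 groups by their share of UMIs from 25 inflammatory genes such as Saa3, Lcn2 and Ccl2, which were left out of the total. The members had 8448 CPM (8203 to 8698) in the lowest group, 10189 (9956 to 10426) in the middle and 11000 (10757 to 11246) in the highest, and each of the 4 complexes followed the same order, complex IV with 2038, 2485 and 2748 CPM. Depth moved with this order, with medians of 895, 1143 and 1198 UMIs, and so did cytosolic ribosomal proteins (22276, 27320 and 29451 CPM), whereas mitochondrially encoded subunits went the other way (7872, 7128 and 6864 CPM). The lowest WT LPS group lay above the 5667 CPM of all KO LPS cells. The 34 WT LPS cells with no UMI of the list had 7210 CPM (6231 to 8299) at a median depth of 674.5 UMIs. KO LPS cells had little inflammatory signal, with 784 CPM of the list against 13718 CPM in WT LPS, and 165 of 320 had no UMI of it, so they were split at 0. The members had 5203 CPM (4856 to 5569) in these 165 cells and 6012 (5693 to 6344) in the other 155, with median depths of 861 and 1171 UMIs. In 3 groups made as in WT LPS, KO LPS cells had 5306, 5941 and 5730 CPM, which is not the order seen in WT LPS. All 107 cells of the lowest KO LPS group and 58 of the middle group had no UMI of the list. Levels also went with depth alone, with 7716, 9169 and 10764 CPM from the shallowest to the deepest group of WT LPS and 4701, 5257 and 6191 CPM in KO LPS. In each of the 3 depth groups KO LPS was lower. The part of depth in the order of the inflammatory groups was not tested.

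Across cells thinned to 500 UMIs, member UMIs went with those of cytosolic ribosomal proteins (Spearman's rho 0.40 over 320 KO LPS cells and 0.52 over 1427 WT LPS cells) and hardly with those of mitochondrially encoded subunits (−0.01 and 0.06). Complexes I and V correlated weakly, at 0.14 and 0.21. These are descriptions, since cells of 1 library share their preparation and counts are sparse.

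The summed level was recomputed without cells that could carry it. The 3 cells with most member UMIs held 9.30% of them in KO LPS against 3.05% in WT LPS, and without them the summed log2 ratio was −0.90. Among cells with Xist UMIs only it was −0.87, and among cells with Y-linked UMIs only −0.82, the latter with 12 KO LPS cells. In cells without any choroid plexus UMI, 255 of KO LPS and 1405 of WT LPS, it was −0.88, with 54 members at least 1.5-fold lower, beside 29.8% of all genes in those cells, and 3 higher, beside 25.4%. These 3 were Ndufa9, Atp5sl and, in place of Cox7a2l, Atp5s with 6 and 27 UMIs.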

How the data were processed

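Members and gene lists were chosen with earlier results of these data known. The authors deposited raw UMI counts per gene and barcode for each library, with 9999 barcodes each, not filtered to cells and not normalised. The submitters' processing notes name bcl2fastq 2.0, STAR and the builds mm9 and mm10 without roles, and strand use was not given in the sources used here. Genes missing from 1 file (5616 in KO LPS, 3036 in WT LPS) were read as 0. Doublets were left in. From the deposited counts, UMIs of cells (at least 500 UMIs and 100 genes) were summed per library and scaled to CPM. Levels carry exact Poisson intervals and ratios exact conditional binomial intervals, and log2 ratios a prior count of 0.5. These cover counting error only. Named were, per complex, the 3 members with most UMIs, the 2 highest and 2 lowest ratios from 50 UMIs, and tissue-restricted isoforms. Others were named after their values were seen. The calculations were tested on simulated data. Python 3.11.15 with numpy 2.4.6 and scipy 1.17.1 was used, and edgeR 4.0.16 for TMM factors.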

Additional observations from a re-analysis of the deposited data

How the results depend on the processing

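The summed log2 ratio of all members (−0.80) stayed below 0 under 14 alternatives and within its counting interval under 11. It was −0.90 without the 3 cells with most member UMIs. Alternatives added after seeing the data gave −0.88 in cells without choroid plexus UMIs and −0.27 when scaled to other genes with transcripts up to 1000 bases. Under that scaling the complexes were at −0.25 (I), −0.24 (III), −0.30 (IV) and −0.28 (V), the median at −0.29, and 18 members were at least 1.5-fold lower (14.9% of all genes) and 6 higher (47.4%), and of the members named by rule Cox7c (0.46), Atp5c1 (0.22) and Uqcrc2 (0.39) turned sign. Complex IV was at −0.99 without the 3 cells and at −1.02 in cells with Xist UMIs only. In cells with Y-linked UMIs only (12 in KO LPS), complex III was at −1.31, complex V at −0.67 and the median at −1.01. There the log2 ratios of Ndufc1 (0.45), Ndufa9 (−0.11), Cox6b1 (0.37), Atp5f1 (0.12), Cox6a2 (0.71), Atp5c1 (0.57), Ndufb4 (−0.45) and Uqcrc2 (0.11) turned sign, and 8 other named members left their counting interval, from −2.88 (Atp5b) to 2.09 (Atp5sl). With Xist UMIs only, Cox5b was at −2.0 and Uqcrq at −1.94. Of the members at least 1.5-fold higher, Cox7a2l was at 0.44 without choroid plexus UMIs and Atp5sl at 0.24 in cells of at least 1000 UMIs. Elsewhere sign turns were seen in named members whose interval spans 1: Ndufb4 (−0.44 in cells of at least 1000 UMIs, −0.51 with Xist UMIs only), Uqcrc2 (0.12 with Xist UMIs only), Cox7c (0.08 from 1000 UMIs), Uqcrh (5 alternatives, −0.16 to −0.01) and Atp5l (3, −0.23 to −0.04). The median was −0.72 in cells of at least 1000 UMIs and −0.90 without the 3 cells. At 2-fold, 26 members were lower (17.1% of all genes) and 0 higher (12.9%), and from 1 UMI on 5 were at least 1.5-fold higher (31.7%). The causes of these changes were not tested. No paired analysis was possible because the result comes from no test and each genotype has 1 library. Depth in KO LPS limits single members, which had 1 to 84 UMIs there.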

Other observations

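Enzymes on either side of oxidative phosphorylation were read in the same cells. Of 16 glycolytic genes with at least 20 UMIs, 10 (62.5%, beside 28% of all genes tested) were at least 1.5-fold lower in KO LPS and 2 (12.5%, beside 25%) at least 1.5-fold higher, and the list summed to 1057 CPM in KO LPS against 1623 in WT LPS (ratio 0.651, 0.586 to 0.722). Pkm, which makes pyruvate, had 89.2 CPM in KO LPS against 214 in WT LPS, and Ldha, which turns pyruvate into lactate, 65.6 and 151 CPM. Hk2, the hexokinase that traps glucose in the cell, was close to level at 441 and 415 CPM. The tricarboxylic acid cycle, which supplies NADH to complex I, had a ratio of 0.775 (0.677 to 0.884). Of its 14 genes 4 (28.6%) were at least 1.5-fold lower, a share like that of all genes tested. At least 1.5-fold higher was 1 (7.14%, beside 25% of all genes tested), the mitochondrial isocitrate dehydrogenase Idh2, with 60.3 and 34.7 CPM. Idh3a was at 13.1 and 43.2 CPM, Cs, the citrate synthase, at 31.5 and 66.9 CPM, and Ogdh level at 57.7 and 58.3 CPM.

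Genes for factors known to drive nuclear or mitochondrial genes of respiration were mixed in direction. Of 12 tested factors 5 were lower and 7 higher in KO LPS, 3 each (25%) by at least 1.5-fold, near the shares of all genes tested. Their sum was 616 CPM in KO LPS against 462.5 in WT LPS (ratio 1.33, 1.15 to 1.54). Nrf1, whose site core was searched in the promoters, had 65.6 CPM (25 UMIs) in KO LPS against 29.2 (58 UMIs) in WT LPS, and Gabpa, the DNA-binding part of an ETS factor, 60.3 and 40.7 CPM. Ppargc1b, a coactivator of mitochondrial genes, went the other way with 2.62 CPM (1 UMI) and 16.1 CPM (32 UMIs), as did the related Pprc1 with 18.4 and 37.2 CPM. Ppargc1a had 0 UMIs in both libraries. The median transcript length of the 12 was 3832 bases, where all genes tested had 3405.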
